A study of Rattus norvegicus with 61 samples.

Results

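The striatum and the cerebellum of rats that carried a sham implant were compared over the genes that are listed for both regions. The striatal group held 8 libraries (animals 1, 3, 17, 18, 32, 34, 48 and 49) and the cerebellar group 7 (animals 1, 3, 17, 18, 32, 34 and 48), which is 15 of the 61 libraries of the series, and 7 rats gave both regions. All were male Sprague-Dawley rats that arrived at 21 days of age, received on postnatal day 28 a subcutaneous polymer implant loaded with 0% 4-OH-PCB52, and kept it for 28 days. 4-OH-PCB52 is a hydroxylated metabolite of a polychlorinated biphenyl, and the other 46 libraries came from rats whose implants held 1%, 5% or 10% of it. RNA was taken from tissue punches, so each library is a mixture of the cells under the punch. In such bulk samples, fewer cells of a type and less RNA per cell cannot be told apart. Region, count table and any preparation run that went with it cannot be told apart either.

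The striatum is the input station of the basal ganglia. Most of its neurons are inhibitory projection neurons that receive cortical and thalamic glutamate and midbrain dopamine, and they split into a direct pathway, with the D1 dopamine receptor, substance P and dynorphin, and an indirect pathway, with the D2 receptor, an adenosine receptor and enkephalin. The cerebellar cortex is built around excitatory granule cells, whose parallel fibres synapse on the large inhibitory Purkinje cells, with inhibitory interneurons and Bergmann glia around them. Forebrain and hindbrain neurons are specified by separate sets of transcription factors, many of which remain active in the adult.

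Totals ran from 6181764 to 10236306 reads in the striatal libraries and from 5420458 to 9435159 in the cerebellar ones (exact permutation test of the means, two-sided, p = 0.325, and 0.172 with labels exchanged within the 7 rats). Levels are given as CPM, reads scaled to a common total with trimmed mean of M values factors, and, with more than 5 libraries in a group, as the lowest, the median and the highest library. Differences are log2 fold changes of striatum over cerebellum from edgeR's quasi-likelihood fit, with their standard error and a p adjusted by the Benjamini-Hochberg method over all genes tested. A gene was called at an adjusted p under 0.05. The p-values of this fit measure the spread between libraries within each region. The fit treats the libraries as independent, although 7 rats gave both regions.

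A few libraries stood apart from their region before any gene was compared. The library labelled striatum 17 had a mean over the projection neuron list of 6.00 log2 CPM, against a striatal median of 8.95. Its Ppp1r1b level of 200.3 CPM and its Adora2a level of 8.12 CPM lay within the range of the cerebellar libraries, which goes against its label. Some other measures went with the label. Its mean was 4.42 log2 CPM for striatal interneuron genes, against 0.90 in the highest cerebellar library, and 4.33 for forebrain transcription factors, against 1.39. Its granule cell mean of 4.22 was the highest of the striatal libraries and lay below the lowest cerebellar one, 6.83. Its choroid plexus, cortical excitatory neuron (5.55) and brainstem neuron (5.06) means were the highest of the 15 libraries. For septum, pallidum and thalamus genes its mean was 5.20, below striatum 48 alone (5.57). For hindbrain and cerebellar transcription factors it had the highest striatal mean, 2.81, against 4.64 in the lowest cerebellar library. Cerebellum 48 had the highest means for ribosomal protein genes and for meningeal and perivascular fibroblasts, together with a granule cell mean below those of the other cerebellar libraries. Striatum 49 had ribosomal protein genes 1.24 log2 units above the striatal median. The first principal component of all genes held 60.3% of the variance and separated the regions, with striatum 17 on the striatal side, and cerebellum 48 lay at the end of the second component, which held 24.6%. Results that rest on these libraries are given with and without them, and the part of these differences in other results was not tested.

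**Figure D1:**
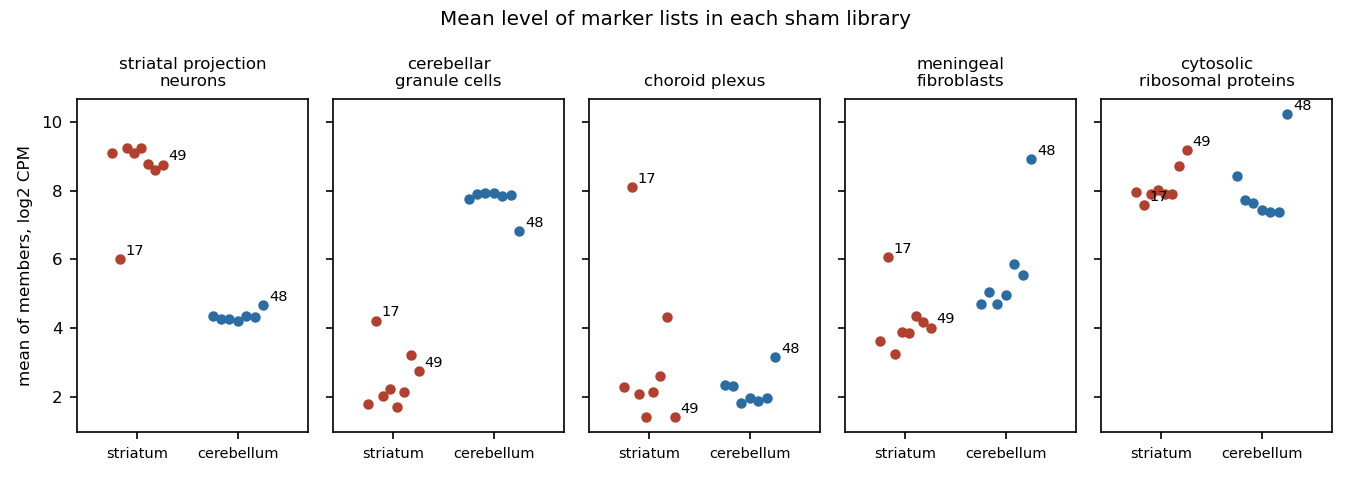
Mean log2 CPM (vertical axis) of the members of 5 lists in each sham library, with striatum on the left and cerebellum on the right of each panel, one point per library and the libraries that stood apart named by animal. Striatum 17 lies low for projection neuron genes (6.00) and high for choroid plexus genes (8.11), and cerebellum 48 lies high for fibroblast (8.92) and ribosomal protein genes (10.23).

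The 6 genes chosen to mark the tissues separated the regions in the direction of their labels, with the exception of striatum 17. Ppp1r1b, which encodes the dopamine-regulated phosphatase inhibitor DARPP-32 of projection neurons, had 200.3, 3553 and 4172 CPM in the striatum and 197, 217 and 533 CPM in the cerebellum. The ranges overlapped through striatum 17 alone, the 7 other striatal libraries lying at 2822 CPM or above. The difference was 3.45 ± 0.48, adjusted p = 2.19e-05, and 3.64 without that library. Drd1, the D1 dopamine receptor of the direct pathway, had 8.52, 338 and 484 CPM in the striatum and 0, 1.53 and 4.04 CPM in the cerebellum. Every striatal library was above every cerebellar one, with striatum 17 nearest (7.35 ± 0.78, adjusted p = 1.48e-06, and 7.54 without it). For Adora2a, the adenosine receptor of the indirect pathway, the levels were 8.12, 635 and 674 CPM in the striatum and 4.56, 5.39 and 13.1 CPM in the cerebellum. Striatum 17 again fell among the cerebellar libraries, and the difference was 6.28 ± 0.68, adjusted p = 1.75e-06, or 6.47 without it.

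The cerebellar markers showed the reverse pattern with no overlap. Gabra6, the alpha6 subunit of the GABA-A receptor of granule cells, had 0, 0.31 and 4.54 CPM in the striatum and 565, 829 and 956 CPM in the cerebellum (-9.53 ± 0.81, adjusted p = 1.42e-07). Leaving out striatum 49, whose level was the highest of the striatal libraries, gave -10.29. Cbln1, the granule cell cerebellin that links parallel fibres to Purkinje cells, had 1.59, 8.98 and 96.9 CPM in the striatum and 1208, 1328 and 1569 CPM in the cerebellum (-5.99 ± 0.81, adjusted p = 1.92e-05). Its highest striatal level came from striatum 48, without which the difference was -7.00. Pcp2, a G protein modulator of Purkinje cells, had 5.89, 8.41 and 17.7 CPM in the striatum and 325, 392 and 1690.2 CPM in the cerebellum, the highest of these in cerebellum 48. All 8 striatal libraries stayed below all 7 cerebellar ones (-5.97 ± 0.44, adjusted p = 3.48e-08).

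**Figure D2:**
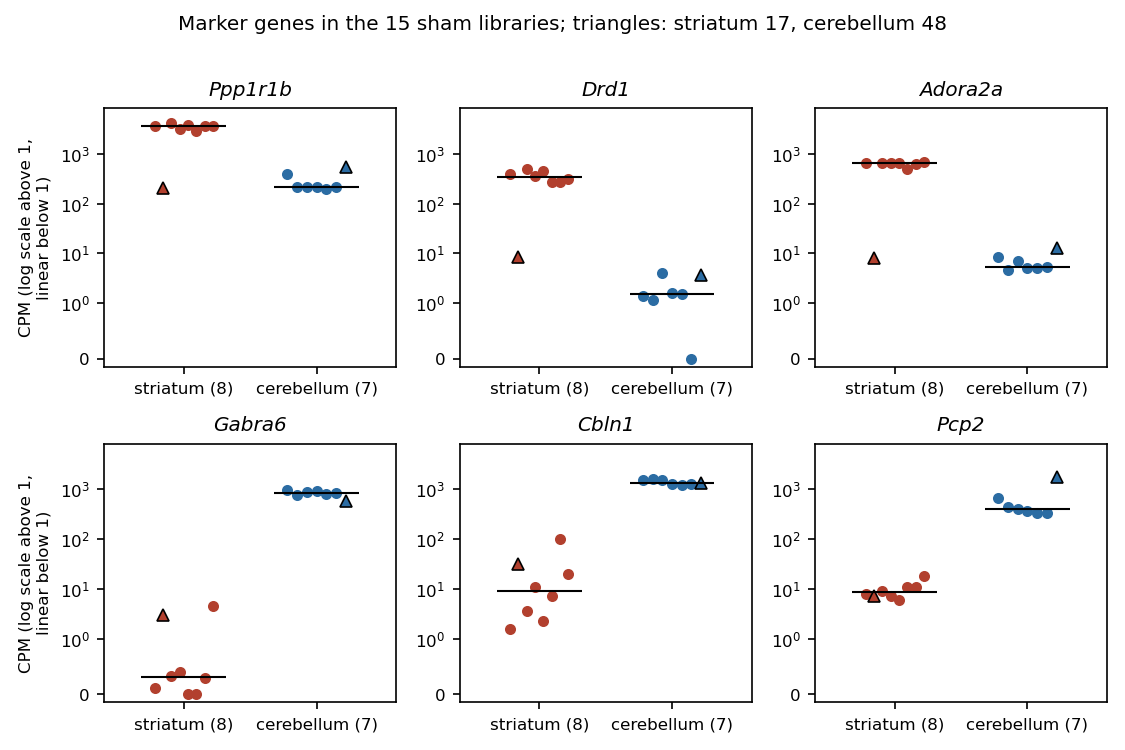
Levels of the 6 marker genes in CPM (vertical axis, log scale above 1 and linear below) in the 8 striatal (left) and 7 cerebellar (right) sham libraries, with the median as a line and the libraries striatum 17 and cerebellum 48 as triangles. Striatum 17 lies at 8.12 CPM for Adora2a, among the cerebellar libraries, and the 3 cerebellar markers do not overlap.

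Of 13889 genes listed for both regions, 11920 passed the filter on low counts, and 5071 of these (42.5%) were called. Expression was higher in striatum for 2508 genes (21%) and higher in cerebellum for 2563 (21.5%). Counts of list members called, given below, are to be read beside these shares. The filter keeps a gene expressed in 1 region alone, so a list member kept in that way had to differ. The median log2 fold change of all genes tested was -0.09. Large differences leaned towards the striatum. At least 4-fold differences were called for 764 genes (6.41%) higher in striatum and 404 (3.39%) higher in cerebellum, and at least 16-fold differences for 247 and 73. Every striatal library lay above every cerebellar one for 1201 genes (10.1%), and below every cerebellar one for 938 (7.87%). Among the 11920 genes tested, more exceeded 1 CPM in the striatal libraries, 11745 ± 42.7, than in the cerebellar ones, 11466 ± 29.0 (SD, n = 8 and 7). An exact permutation test, two-sided, gave p = 0.000155, the smallest that the 6435 splits allow. These splits treat the libraries as independent. When labels were exchanged within the 7 rats that gave both regions, the exact p was 0.0156, the smallest that the 128 exchanges allow. The genes counted had passed a filter that used the region labels, so both p-values describe this set of genes alone. Without striatum 17, striatum 49 and cerebellum 48, 3399 genes were higher in striatum and 3639 higher in cerebellum, with 790 and 438 at least 4-fold.

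**Figure D3:**
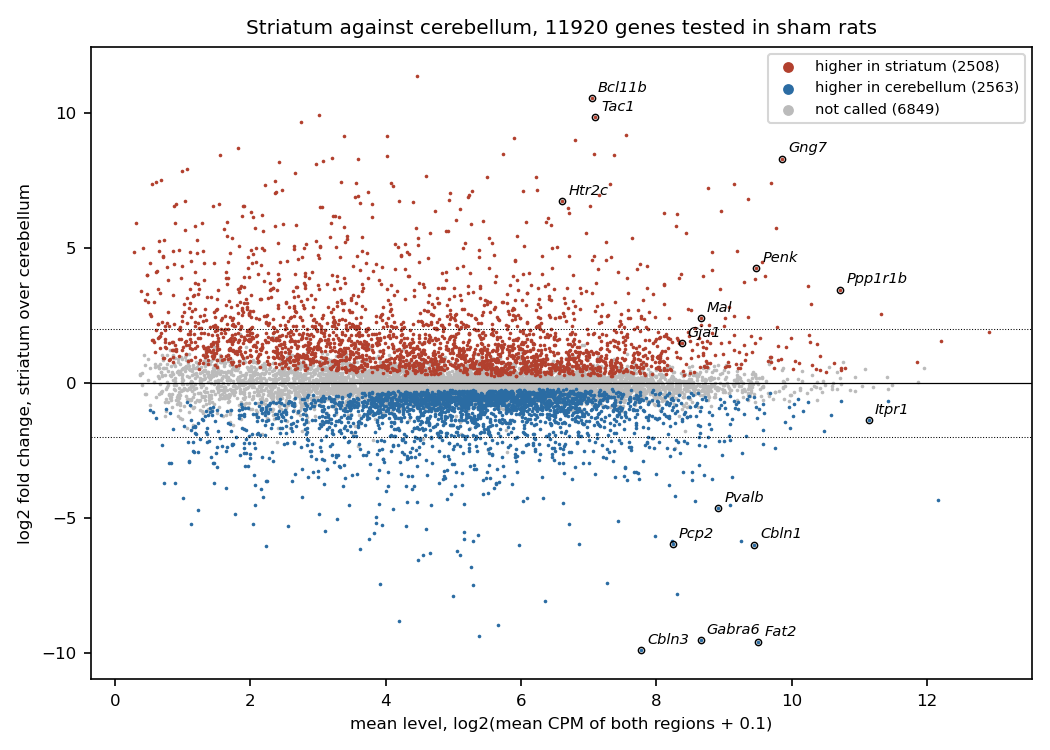
Log2 fold change of striatum over cerebellum (vertical axis) against the mean level of both regions (horizontal axis, log2 CPM) for the 11920 genes tested, one point per gene, coloured by call, with dotted lines at 4-fold and some genes named. The 764 called genes past the upper line outnumber the 404 past the lower one.

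The stretches of 250 bases before the annotated start are shown for 1 gene of each of the main neuron classes, so that the letters behind the comparison can be seen. They are RefSeq sequences on the GRCr8 build, read 5′ to 3′ in the direction of the gene. Capitals mark matches, on either strand, to TGACG (the half-site bound by cyclic AMP response element factors), TGACGTCA (the full element, which contains it), TAATTA (a homeodomain core), CAGATG (an E-box of the NeuroD type) or GGGCGG (a GC box). Tac1 stands for the direct pathway (chr4:36645333-36645582, plus strand), Gpr6 for the indirect pathway (chr20:46075252-46075501, minus strand), Gabra6 for granule cells (chr10:27327235-27327484, minus strand) and Slc1a6 for Purkinje cells (chr7:11521008-11521257, minus strand).
Tac1: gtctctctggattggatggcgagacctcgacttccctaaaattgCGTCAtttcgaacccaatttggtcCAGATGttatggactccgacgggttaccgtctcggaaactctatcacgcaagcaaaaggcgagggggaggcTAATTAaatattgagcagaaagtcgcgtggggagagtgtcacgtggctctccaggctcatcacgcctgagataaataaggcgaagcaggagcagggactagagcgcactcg
Gpr6: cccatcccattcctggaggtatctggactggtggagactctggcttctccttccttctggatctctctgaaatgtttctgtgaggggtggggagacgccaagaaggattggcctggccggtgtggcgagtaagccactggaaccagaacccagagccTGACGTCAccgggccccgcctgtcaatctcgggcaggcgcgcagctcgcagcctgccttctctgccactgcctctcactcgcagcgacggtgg
Gabra6: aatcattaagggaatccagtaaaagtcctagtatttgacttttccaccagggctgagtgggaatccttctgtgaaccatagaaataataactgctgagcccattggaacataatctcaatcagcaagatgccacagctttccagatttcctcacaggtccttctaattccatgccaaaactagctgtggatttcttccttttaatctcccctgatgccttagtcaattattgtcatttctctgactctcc
Slc1a6: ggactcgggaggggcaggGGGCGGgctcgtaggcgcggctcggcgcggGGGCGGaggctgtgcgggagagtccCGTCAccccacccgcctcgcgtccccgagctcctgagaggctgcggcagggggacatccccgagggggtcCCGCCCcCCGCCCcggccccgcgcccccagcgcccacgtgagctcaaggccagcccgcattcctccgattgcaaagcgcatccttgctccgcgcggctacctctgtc
In these windows Tac1 held 1 half-site, 1 homeodomain core and 1 E-box, Gpr6 held 1 full cyclic AMP element, Slc1a6 held 4 GC boxes and 1 half-site, and Gabra6 held no match to these letters. Promoters were matched for 9696 of the 11920 genes tested. The full element was present in 2.35% of 597 promoters of genes at least 4-fold higher in striatum, in 2.83% of 283 promoters of genes at least 4-fold higher in cerebellum, and in 2.99% of all tested. The half-site was present in 21.1%, 20.1% and 28.2% of these 3 sets, the homeodomain core in 2.51%, 1.77% and 1.95%, the E-box in 12.1%, 11.7% and 9.35%, and the GC box in 49.4%, 50.9% and 58.6%. A match describes the letters of the window and is not a measured binding site.

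The 12 genes with the largest differences towards the striatum, among those with a mean of at least 20 CPM in the higher region and no overlap of libraries, were transcription factors, neuropeptides and receptors of projection neurons together with less familiar genes. Six3, a forebrain homeodomain factor, had 26.6, 49 and 60.2 CPM in the striatum and not a single read in the 7 cerebellar libraries. Taking 3 reads over the cerebellar group as the limit, it was at least 733-fold higher in striatum. Bcl11b (also called Ctip2), a zinc finger factor that projection neurons need, had 62.7, 319.9 and 379 CPM in the striatum and 0, 0.135 and 0.476 CPM in the cerebellum (10.54 ± 0.65, adjusted p = 5.22e-09). Tac1, the substance P precursor, had 25.1, 304 and 378 CPM in the striatum and 0, 0.176 and 0.945 CPM in the cerebellum (9.84 ± 0.70, adjusted p = 2.56e-08).

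Sp9, a zinc finger factor of indirect pathway neurons, and Tnni3, a troponin subunit known from heart muscle, were close to absent from the cerebellum. Sp9 was read 2064 times in the striatal libraries and 2 times in the cerebellar ones, a ratio per effective read total of 804 (95% interval 222 to 6643), and Tnni3 1237 times and 1 time, a ratio of 964 (95% interval 173 to 38091). These intervals cover counting error only. Gpr6, an orphan receptor of the indirect pathway, had 2.87, 135 and 166 CPM in the striatum and 0, 0.294 and 0.528 CPM in the cerebellum (9.09 ± 0.84, adjusted p = 3.46e-07). Pdyn, the dynorphin precursor, differed by 8.99 ± 0.74 (medians 254 against 0.159 CPM) and Syndig1l, a relative of the AMPA receptor-associated protein SynDIG1, by 8.46 ± 0.66 (medians 364 against 1.11 CPM). Lrrc10b, a leucine-rich repeat gene, differed by 9.17 ± 0.57 (medians 395 against 0.423 CPM), Meis2, a homeodomain factor, by 8.50 ± 0.96, Myo5b, an unconventional myosin, by 8.48 ± 0.59, and Slit1, an axon guidance ligand, by 8.39 ± 0.88. For several of these genes cerebellum 48 had the highest cerebellar level. Fitted differences of genes with hardly a read in one region depend on the prior count and are no bounds. Without cerebellum 48 they were 9.89 for Lrrc10b, 10.93 for Sp9, 12.71 for Meis2, 10.69 for Myo5b, 10.06 for Pdyn, 10.53 for Tac1 and 9.64 for Slit1. Slit1 had its highest level, 128 CPM, in striatum 17, and differed by 7.59 without that library. Without cerebellum 18, which held its single cerebellar read, the fitted difference of Tnni3 was 10.32. DESeq2 did not call Meis2 (3.94, adjusted p = 0.0552).

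The 12 genes with the largest differences towards the cerebellum were led by granule cell genes. Cbln3, the cerebellin found in granule cells, had 0, 0.102 and 1.98 CPM in the striatum and 95.8, 466 and 612 CPM in the cerebellum (-9.91 ± 0.73, adjusted p = 3.62e-08). Fat2, a giant cadherin of parallel fibres, had 0, 0.241 and 8.32 CPM in the striatum and 206, 1828 and 2198 CPM in the cerebellum (-9.59 ± 1.07, adjusted p = 2.52e-06). Both were lowest in cerebellum 48 and still separated the regions completely. Neurod1, a basic helix-loop-helix factor of granule cells, differed by -7.84 ± 1.10 (medians 0.35 against 682 CPM), and Barhl2, a homeodomain factor, by -7.49 ± 0.69 (medians 0 against 83.6 CPM). En2, the homeodomain factor of the midbrain and hindbrain, differed by -8.07 ± 0.65 (medians 0.188 against 179 CPM).

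Ppp1r17, the Purkinje cell phosphatase inhibitor also called G-substrate, had 0, 0.75 and 8.42 CPM in the striatum and 229, 243 and 578 CPM in the cerebellum (-7.40 ± 0.72, adjusted p = 5.63e-07). Crtam, an adhesion molecule better known from T cells, had 0, 0 and 0.454 CPM in the striatum and 76.2, 78.6 and 97.7 CPM in the cerebellum (-9.38 ± 0.47, adjusted p = 7.04e-10), and its cerebellar libraries lay close together. Hes3, a helix-loop-helix repressor, differed by -8.98 ± 0.39 (medians 0.155 against 85.3 CPM) and Impg1, a proteoglycan named for the retina, by -7.89 ± 0.32 (medians 0.172 against 62.2 CPM). Tff3, a trefoil factor, differed by -8.83 ± 0.68 and B3gnt5, a glycosyltransferase of lacto-series glycolipids, by -7.44 ± 0.44. Striatum 17 had the highest or second highest striatal level of many of these genes. Without it the differences were -11.20 for Cbln3, -10.69 for Fat2, -10.16 for Crtam, -9.18 for En2, -10.54 for Neurod1, -9.24 for Barhl2 and -8.64 for Ppp1r17. Leaving out striatum 49 gave -11.12 for Tff3, and leaving out striatum 1 gave -8.09 for B3gnt5.

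Genes of the striatal projection neurons were higher in striatum almost without exception. The list of both pathways had 22 members, all of them tested, of which 20 were called higher in striatum, each by at least 4-fold, with a median log2 fold change of 3.90 beside -0.09 for all genes. Gng7, the G protein gamma subunit through which dopamine and adenosine receptors drive cyclic AMP, had 84.01, 1990.2 and 2714 CPM in the striatum and 4.29, 5.87 and 7.83 CPM in the cerebellum (8.31 ± 0.61, adjusted p = 3.29e-08). Ptpn5, the striatal-enriched phosphatase STEP, had 245, 1014 and 1312 CPM in the striatum and 6.03, 8.39 and 21.7 CPM in the cerebellum (6.39 ± 0.46, adjusted p = 2.56e-08). For both genes striatum 17 was the lowest striatal library, and it was still above the cerebellar range. The 2 members that were not called were Cnr1, the CB1 cannabinoid receptor, with medians of 374 against 644 CPM (-0.53 ± 0.41, adjusted p = 0.325), and Itpka, an inositol trisphosphate kinase, with medians of 170.1 against 95.5 CPM (0.36 ± 0.28, adjusted p = 0.328). Without cerebellum 48, Cnr1 was called higher in cerebellum (-0.76, adjusted p = 0.0493) and Itpka higher in striatum (0.65, adjusted p = 0.0125).

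Of 10 direct pathway genes 7 passed the filter, and 5 were higher in striatum. Chrm4, the M4 muscarinic receptor, had 7.93, 85.3 and 103 CPM in the striatum and 0.159, 0.294 and 1.75 CPM in the cerebellum (7.11 ± 0.61, adjusted p = 1.46e-07, and 7.77 without cerebellum 48). Ebf1, a helix-loop-helix factor of direct pathway neurons, went the other way, with 6.97, 14.8 and 17.2 CPM in the striatum and 3.64, 28.5 and 49.96 CPM in the cerebellum (-1.26 ± 0.39, adjusted p = 0.0155), and its groups overlapped. All 9 indirect pathway genes were tested and 8 were higher in striatum. Drd2, the D2 dopamine receptor, had 8.72, 317 and 363 CPM in the striatum and 1.47, 1.93 and 4.05 CPM in the cerebellum (6.96 ± 0.62, adjusted p = 2.46e-07). Penk, the enkephalin precursor, had 68.3, 1462 and 1955 CPM in the striatum and 48.9, 61.04 and 99.5 CPM in the cerebellum (4.26 ± 0.49, adjusted p = 3.61e-06), and striatum 17 fell into the cerebellar range. Without striatum 17, Penk differed by 4.44.

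Striatal interneuron genes followed the projection neurons. Of 14 members 10 passed the filter, and all 10 were higher in striatum. The filter keeps a gene that is expressed in 1 region alone, so that such a member had to differ. Markers of cholinergic interneurons were nearly without reads in the cerebellum. Chat, choline acetyltransferase, was read 1135 times in the striatum and 2 times in the cerebellum, a ratio of 442 (95% interval 122 to 3655). Slc18a3, the vesicular acetylcholine transporter, had 761 reads against 2, a ratio of 296 (95% interval 81.8 to 2452), and Tacr1, the substance P receptor that these cells carry, had 989 reads against 2, a ratio of 385 (95% interval 106 to 3185). Without cerebellum 48, the fitted difference of Slc18a3 was 9.55 in place of 7.78. Npy and Sst, peptides of another interneuron class, had medians of 158 against 6.77 CPM and 117 against 13.9 CPM. Their differences were 3.67 ± 0.73 for Npy, with 4.60 without cerebellum 48, and 2.71 ± 0.33 for Sst.

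In the cerebellum the granule cell list was higher in all of its 22 members, 19 of them by at least 4-fold, with a median log2 fold change of -4.08. Cdh15, M-cadherin, had 6.21, 8.13 and 13.2 CPM in the striatum and 82.3, 193 and 266 CPM in the cerebellum (-4.45 ± 0.25, adjusted p = 2.24e-09). Tmem266, a voltage-sensing membrane protein, had 3.92, 5.41 and 11.4 CPM in the striatum and 77.2, 90.9 and 105 CPM in the cerebellum (-3.76 ± 0.25, adjusted p = 1.21e-08). The groups of both genes were far from overlapping.

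Purkinje cell genes were tested for 17 of 23 members, and 16 were higher in cerebellum, 10 of them by at least 4-fold. Slc1a6, the Purkinje cell glutamate transporter, had 3.53, 5.23 and 7.67 CPM in the striatum and 156, 193 and 266 CPM in the cerebellum (-5.22 ± 0.19, adjusted p = 4.55e-11). Car8, a carbonic anhydrase relative that binds the inositol trisphosphate receptor, had 13.5, 18.6 and 36.04 CPM in the striatum and 819, 917 and 2535 CPM in the cerebellum (-5.84 ± 0.35, adjusted p = 4.48e-09). Homer3, the Purkinje cell member of the Homer scaffolds, differed by -3.46 ± 0.23 (medians 28.1 against 289 CPM). The exception was Pcp4, a calmodulin regulator that both tissues express, with medians of 737 against 311 CPM (0.68 ± 0.39, adjusted p = 0.177). Without cerebellum 48, whose Pcp4 level was 1247 CPM, it was called higher in striatum (1.12, adjusted p = 0.0049).

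Most called genes of cerebellar interneurons and of Bergmann glia were higher in cerebellum. Of 15 members of the list of inhibitory interneurons and unipolar brush cells, 11 were tested, 1 was higher in striatum and 7 in cerebellum. Tfap2b, the AP-2 beta factor of inhibitory neurons, had 0.228, 0.789 and 1.91 CPM in the striatum and 16.1, 78.8 and 90.2 CPM in the cerebellum (-6.36 ± 0.43, adjusted p = 1.41e-08). Pvalb, the calcium buffer parvalbumin of Purkinje cells and interneurons, had 9.90, 25.2 and 93.1 CPM in the striatum and 509, 646 and 2467 CPM in the cerebellum (-4.63 ± 0.58, adjusted p = 8.41e-06). Nxph1, a neurexin ligand, was the member higher in striatum (medians 32.6 against 17.95 CPM, 0.69 ± 0.21, adjusted p = 0.0125), and its groups overlapped. All 10 Bergmann glia genes were tested and 6 were higher in cerebellum, with a median log2 fold change of -1.24. Gdf10, a growth factor of Bergmann glia, had 3.18, 7.58 and 10.7 CPM in the striatum and 61.3, 95.2 and 113 CPM in the cerebellum (-3.66 ± 0.21, adjusted p = 2.33e-09). Wif1, a Wnt inhibitor, differed by -2.49 ± 0.20, without overlap.

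Genes of oligodendrocytes, microglia and astrocytes were called higher in striatum more often than in cerebellum. Myelin genes were tested for 20 of 21 members, and 18 were higher in striatum, 4 of them by at least 4-fold, with a median log2 fold change of 1.57. Mal, a proteolipid of compact myelin, had 422, 661 and 944 CPM in the striatum and 94.7, 129 and 179 CPM in the cerebellum (2.39 ± 0.21, adjusted p = 1.50e-07). Opalin, an oligodendrocyte membrane protein, differed by 2.52 ± 0.21 and Tspan2, a myelin tetraspanin, by 2.09 ± 0.16. Precursor and newly formed oligodendrocyte genes were tested for 13 of 14 members and 10 were higher in striatum. Olig1 and Olig2, the lineage factors, differed by 1.98 ± 0.21 and 1.95 ± 0.22, and Neu4, a sialidase, had medians of 62.4 against 22.7 CPM. Every striatal library was above every cerebellar one for each of these 6 genes.

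Microglial genes were higher in striatum for 13 of 20 members tested, with a median of 1.58. Ctss, the lysosomal protease cathepsin S, had 118, 197 and 243 CPM in the striatum and 39.4, 44.1 and 104 CPM in the cerebellum (1.81 ± 0.23, adjusted p = 9.83e-06). Selplg, a selectin ligand, differed by 2.19 ± 0.24, and Gpr34, a lysophospholipid receptor, by 2.08 ± 0.27. Without cerebellum 48, 19 of the 20 were called higher in striatum, in a fit that called 29% of all genes higher there, against 21% with that library.

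Astrocyte genes were called higher in striatum for 12 of 21 members and lower for 1, with a median of 0.75. Gja1, the gap junction protein connexin 43, had 364, 505 and 596 CPM in the striatum and 147, 179 and 201 CPM in the cerebellum (1.47 ± 0.14, adjusted p = 5.50e-07). Slc6a11, the GABA transporter GAT3, had 52.9, 82.9 and 189.6 CPM in the striatum and 10.6, 15.5 and 24.1 CPM in the cerebellum (2.73 ± 0.31, adjusted p = 3.10e-06), and Cldn10, a claudin, differed by 2.26 ± 0.24. Aldoc, the glycolytic aldolase also known as zebrin II, which marks stripes of Purkinje cells as well as astrocytes, was the member lower in striatum (medians 1255 against 2085 CPM, -0.68 ± 0.20, adjusted p = 0.0109).

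Of 20 endothelial genes 7 were higher in striatum, with a median of 0.48, beside 21% of all genes. Without cerebellum 48 they were 12, in a fit that called 29% of all genes higher in striatum. Mfsd2a, the lipid transporter of the blood-brain barrier, differed by 1.25 ± 0.15, Slco1c1, the thyroxine transporter, by 1.06 ± 0.13, and Slc2a1, the glucose transporter GLUT1, by 0.87 ± 0.13, each with every striatal library above every cerebellar one. Pericyte and smooth muscle genes were tested for 14 of 15 members, with 4 higher in striatum and 1 higher in cerebellum. Without cerebellum 48, 9 were higher in striatum, again in the fit that called 29% of all genes so. Without striatum 3, cerebellum 1 or cerebellum 18, 2 were higher in cerebellum. Cspg4, the NG2 proteoglycan also carried by oligodendrocyte precursors, differed by 1.68 ± 0.31 and Pdgfrb, the pericyte growth factor receptor, by 0.71 ± 0.19. The member higher in cerebellum was Vtn, vitronectin (-1.71 ± 0.56), whose level reached 546 CPM in cerebellum 48. Without that library its difference was -0.44, and with a block for the animal, which leaves out striatum 49, the call was lost (-0.92, adjusted p = 0.0884).

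**Figure D4:**
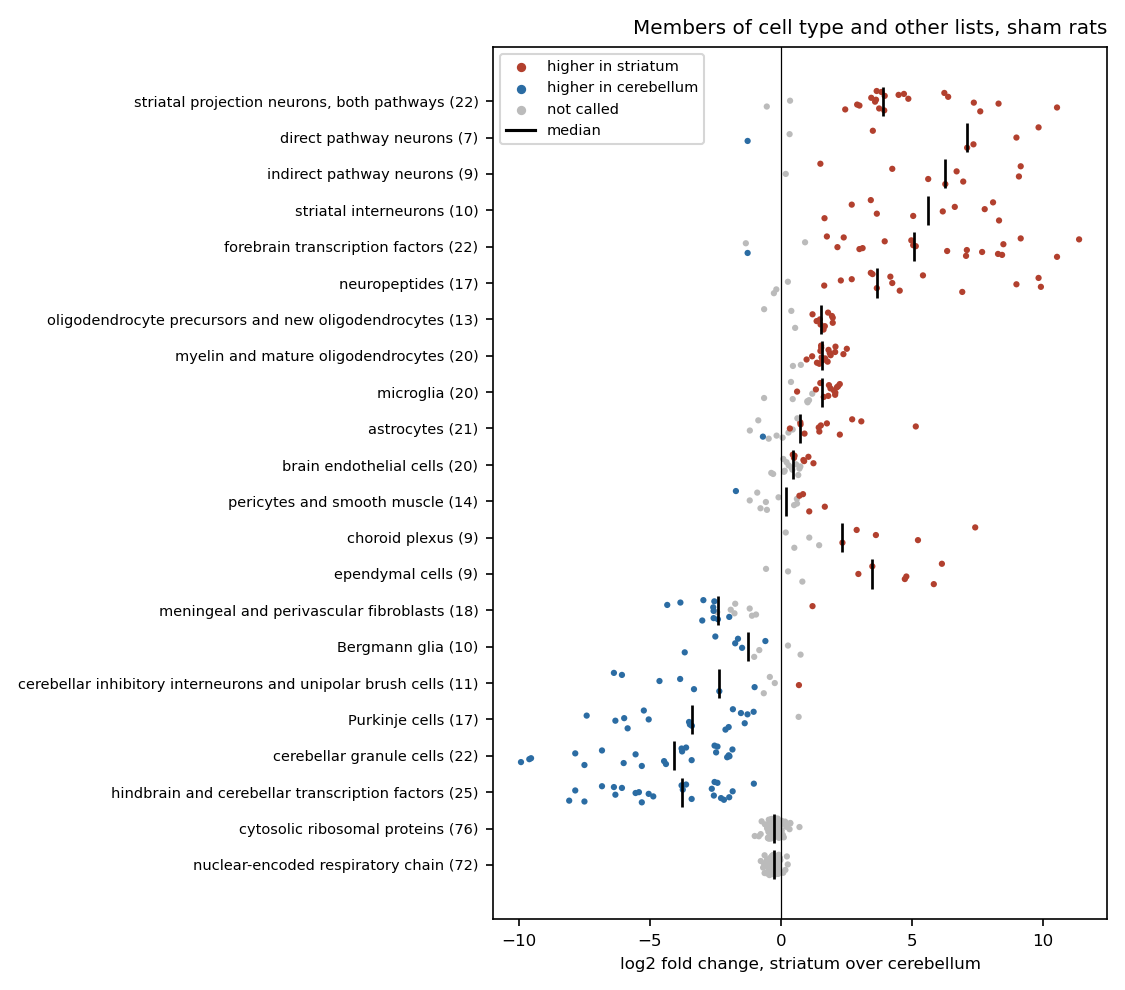
Log2 fold change of striatum over cerebellum (horizontal axis) of the tested members of 22 lists, one point per gene coloured by call, with the list's median as a line and the number tested in brackets. Neuron lists lie far from 0 on the side of their region, from a median of 7.11 for direct pathway genes to -4.08 for granule cell genes, and myelin genes lie at 1.57.

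For some genes of other tissues that a punch can catch, the call or the size of the difference depended on single libraries. Choroid plexus genes were tested for 9 of 16 members and 5 were called higher in striatum. Ttr, transthyretin, had 1.97, 21.96 and 12157 CPM in the striatum and 0.307, 2.11 and 56.2 CPM in the cerebellum, the highest striatal value in striatum 17 (7.42 ± 2.21, adjusted p = 0.0128). Without striatum 17 the difference was 4.01, without cerebellum 48 it was 9.77, and without both libraries of animal 17 the call was lost (3.86, adjusted p = 0.0816). Enpp2, autotaxin, differed by 2.36 ± 0.59 and by 1.29 without striatum 17, and Folr1, a folate receptor, by 5.24 ± 1.34, by 3.00 without striatum 17 and by 6.64 without cerebellum 48. Kl, the anti-ageing protein klotho, had 0.49, 0.982 and 237 CPM in the striatum and 1.11, 2.40 and 3.91 CPM in the cerebellum (3.63 ± 1.39, adjusted p = 0.0462), and Clic6, a chloride channel protein, 0.757, 2.79 and 243 CPM and 6.07, 13.5 and 15.4 CPM (1.47 ± 1.09, adjusted p = 0.301). The call of Kl was lost when striatum 17 (-0.66) or any of cerebellum 1, 3, 17, 18, 32 and 34 (3.50 to 3.69) was left out, and with a block for the animal (0.10, against 3.79 in the same libraries without it), while Clic6 without striatum 17 was called higher in cerebellum (-1.66). Without striatum 17, 8 choroid plexus genes were tested, 3 were higher in striatum and 3 in cerebellum. With a block for the animal, 3 of 8 were higher in striatum and the median was -0.13, against 4 of 8 and a median of 2.04 in the same 14 libraries without the block. DESeq2 called 4 higher in striatum and 2 higher in cerebellum, and limma-voom 4 and 4, with a median of -0.81. Over all genes the shares were 24.5% and 23.8% by DESeq2, 35.6% and 35.9% by limma-voom, and 23.4% and 23.5% with the block.

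Genes of ependymal cells, which line the ventricle beside the striatum, were tested for 9 of 12 members, and 6 were higher in striatum, all without overlap. Over all genes, 10.1% had every striatal library above every cerebellar one, and 7.87% the reverse. Tmem212 had 3.31, 7.35 and 17.8 CPM in the striatum and 0, 0 and 0.423 CPM in the cerebellum (6.15 ± 0.63, adjusted p = 1.14e-06, and 7.60 without cerebellum 1). Ak7, an adenylate kinase of cilia, differed by 5.84 ± 0.62. Fibroblast genes of the meninges and vessel sheaths were tested for 18 of 19 members, 10 were higher in cerebellum and 1 in striatum. None separated the groups, beside the 10.1% and 7.87% of all genes that did so. Ptgds, prostaglandin D synthase, had 121, 324 and 1527 CPM in the striatum and 917, 1454 and 52391 CPM in the cerebellum, the highest value in cerebellum 48 (-4.33 ± 1.03, adjusted p = 0.00295). It differed by -1.76 without cerebellum 48 and by -4.97 without striatum 17. The collagen genes Col1a1 and Col1a2 differed by -2.40 ± 0.56 and -2.56 ± 0.60, by -3.06 and -3.18 without striatum 17, and Col1a2 by -1.81 without cerebellum 48. Pdgfra, the growth factor receptor that oligodendrocyte precursors also carry, was the member higher in striatum (1.21 ± 0.32). Blood was represented by Hbb, a beta globin gene with the close copies Hbbl1 and Hbb-bs, between which reads can be split, at 0.159, 1.89 and 94.9 CPM in the striatum and 0.153, 2.65 and 617 CPM in the cerebellum (-2.56 ± 1.54, adjusted p = 0.198). Its direction turned without cerebellum 48 (1.09), it was called lower in striatum without striatum 48 (-4.26, adjusted p = 0.0466), and its call with a block for the animal had an adjusted p of 0.0132 (-1.17).

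Most tested transcription factors of forebrain identity were higher in striatum, and all tested ones of hindbrain identity were higher in cerebellum. Over all genes these shares were 21% and 21.5%. Members expressed in 1 region alone pass the filter and had to differ, so the counts are descriptions. Forebrain factors passed the filter for 22 of 34 members, and 19 were higher in striatum, 18 by at least 4-fold, with 1 higher in cerebellum, or 2 without striatum 17. Dlx5, a homeodomain factor of forebrain inhibitory neurons, was read 1505 times in the striatum and 3 times in the cerebellum, a ratio of 391 (95% interval 133 to 1897), and its fitted difference without cerebellum 48 was 9.21 in place of 8.29. The member higher in cerebellum was Ebf1, as above. Hindbrain and cerebellar factors passed for 25 of 43 members, and all 25 were higher in cerebellum, 22 by at least 4-fold. Pax6, the paired box factor of granule cells, had 5.06, 6.61 and 12.98 CPM in the striatum and 39.1, 121 and 127 CPM in the cerebellum (-3.74 ± 0.28, adjusted p = 4.31e-08). Mab21l2, a developmental regulator, had 0.151, 1.27 and 1.80 CPM in the striatum and 25.9, 53.2 and 66.9 CPM in the cerebellum (-5.41 ± 0.39, adjusted p = 2.71e-08).

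Some genes were listed for 1 region alone, 342 for the striatum and 240 for the cerebellum, and 14 and 15 of these averaged at least 1 CPM. Each table lists genes with 10 reads or more over all its libraries, exposed rats included, so that a missing gene has no measured level and no fold is given. Among those listed for the striatum alone were 3 factors of basal forebrain neurons, Nkx2-1 at 8.57 ± 3.46 CPM, Lhx8 at 8.25 ± 2.70 CPM and Isl1 at 7.59 ± 1.30 CPM (mean ± SD, n = 8). Kif28p, a kinesin family gene, averaged 9.24 ± 6.05 CPM, Efhb 2.57 ± 3.64 CPM and Hal, histidine ammonia-lyase, 2.51 ± 1.18 CPM. Those listed for the cerebellum alone included the factors Lbx1 at 9.02 ± 1.23 CPM, Pax2 of inhibitory interneuron precursors at 5.53 ± 2.14 CPM, Pax3 at 3.21 ± 1.08 CPM and Dlx4 at 3.06 ± 0.949 CPM (n = 7). Nrk, a kinase gene, averaged 12.4 ± 2.57 CPM and Il22, an interleukin gene, 5.35 ± 2.85 CPM.

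GABA-A receptors are pentamers whose subunits set their pharmacology and place in the synapse. Transcript levels of several subunits differed between the regions. Of 17 subunit genes 13 were tested, 6 were higher in striatum and 5 higher in cerebellum, beside 21% and 21.5% of all genes. Towards the striatum, Gabra2 had 60.5, 122 and 151 CPM there and 4.59, 10.2 and 16.9 CPM in the cerebellum (3.44 ± 0.26, adjusted p = 4.27e-08), and Gabra4 had 48.9, 132 and 158 CPM and 5.15, 13.2 and 16.7 CPM (3.32 ± 0.29, adjusted p = 2.01e-07). Gabra5 differed by 5.75 ± 0.50 (medians 35.3 against 0.613 CPM), Gabrg3 by 3.56 ± 0.35, Gabra3 by 1.42 ± 0.23 and Gabrg1 by 1.20 ± 0.28. Towards the cerebellum, Gabra6 stood first, as given above. Gabrd, the delta subunit of extrasynaptic receptors that pairs with alpha6, had 19.1, 96.8 and 185 CPM in the striatum and 284, 369 and 543 CPM in the cerebellum (-2.04 ± 0.32, adjusted p = 6.84e-05). Gabrb2 differed by -1.38 ± 0.49. The call of Gabrb2 was lost when any one of cerebellum 3, 32 and 34 or striatum 18 and 48 was left out, with differences of -1.36 to -1.22 and adjusted p from 0.0511 to 0.0696. It was also lost without both libraries of animal 17 (adjusted p = 0.0594) and in 1 fit of all 61 libraries (adjusted p = 0.0777). Gabrb1 was not called (0.61 ± 0.32, adjusted p = 0.139).

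All 18 ionotropic glutamate receptor genes were tested, and 6 were higher in striatum and 4 higher in cerebellum, beside 21% and 21.5% of all genes. Among NMDA receptor genes, Grin1, the subunit that every such receptor needs, had 459, 658 and 749.9 CPM in the striatum and 149.6, 725 and 792 CPM in the cerebellum, with overlapping groups and no call (0.01 ± 0.27, adjusted p = 0.989). Grin2b had 8.79, 30 and 56.5 CPM in the striatum and 1.06, 2.12 and 3.53 CPM in the cerebellum (3.66 ± 0.43, adjusted p = 3.96e-06). Grin2c, the subunit of mature granule cells, had 131, 219.8 and 294 CPM in the striatum and 238, 1006 and 1216 CPM in the cerebellum (-1.95 ± 0.29, adjusted p = 4.59e-05), overlapping through cerebellum 48. Of the AMPA receptor genes, Gria4 was lower in striatum (medians 128 against 626 CPM, -2.16 ± 0.26, adjusted p = 5.66e-06) and Gria3 higher (medians 201 against 119 CPM, 0.92 ± 0.26, adjusted p = 0.00994). Gria1 (-0.24 ± 0.25) and Gria2 (0.48 ± 0.40) were not called, and Gria2 was called with a block for the animal (0.75, adjusted p = 0.0436).

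Grid1, a delta receptor that binds cerebellins rather than acting as a classical glutamate channel, had 84.1, 97.9 and 111 CPM in the striatum and 20.4, 35.1 and 39.8 CPM in the cerebellum (1.53 ± 0.14, adjusted p = 2.08e-07). Kainate receptors split, with Grik5 higher in striatum (1.08 ± 0.22) and Grik1 lower (-2.09 ± 0.29), neither with overlap. All 7 metabotropic receptor genes on the list were tested, 3 were higher in striatum and 2 higher in cerebellum, beside 21% and 21.5% of all genes. Grm5, which activates phospholipase C in striatal neurons, had 39.97, 189 and 279.9 CPM in the striatum and 0.405, 2.75 and 5.42 CPM in the cerebellum (5.97 ± 0.57, adjusted p = 4.81e-07). Grm4, found on parallel fibre terminals, was lower in striatum (-3.60 ± 0.41, medians 62.7 against 819 CPM), and Grm3 (1.92 ± 0.26) and Grm7 (2.04 ± 0.20) were higher.

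**Figure D5:**
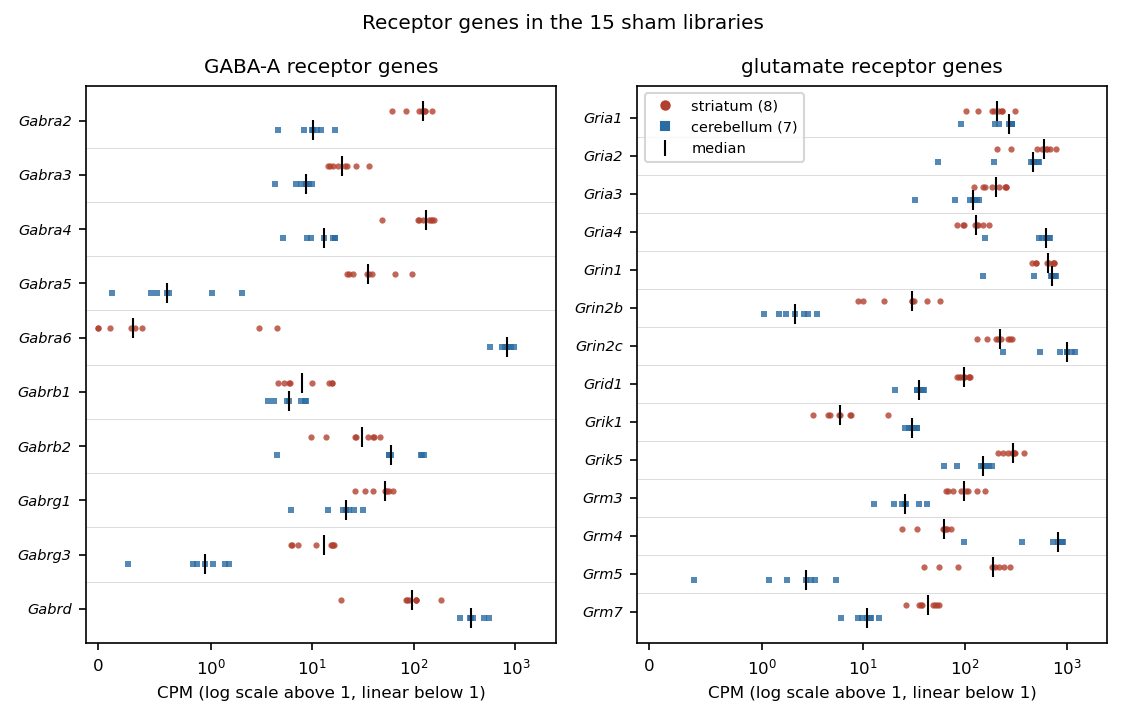
Levels in CPM (horizontal axis, log scale above 1 and linear below) of GABA-A receptor genes (left panel) and glutamate receptor genes (right panel) in each sham library, striatum as circles above cerebellum as squares, with the group's median as a bar. Gabra2, Gabra4, Grin2b and Grm5 lie higher in striatum, Gabra6, Gabrd and Grm4 higher in cerebellum, and Grin1 overlaps.

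Receptors for dopamine, adenosine and acetylcholine passed the filter for 9 of 13 members, with 7 higher in striatum and 1 higher in cerebellum. The shares of all genes were 21% and 21.5%. Chrm1, the M1 muscarinic receptor, had 37.9, 72.3 and 81.9 CPM in the striatum and 0, 0.126 and 4.18 CPM in the cerebellum (6.45 ± 0.70, adjusted p = 1.78e-06, and 8.52 without cerebellum 48, which held the highest cerebellar level). Chrm3, the M3 receptor, differed by 2.83 ± 0.24. Adora1, the inhibitory adenosine A1 receptor of parallel fibre terminals and other synapses, was the member lower in striatum (medians 74.6 against 119 CPM, -0.75 ± 0.15, adjusted p = 8.53e-04), although the groups overlapped. Serotonin and adrenergic receptors were higher in striatum for 10 of 17 tested members of 20. Htr2c had 122, 174 and 312 CPM in the striatum and 0.528, 2.01 and 3.37 CPM in the cerebellum (6.74 ± 0.35, adjusted p = 1.16e-09), Htr6 differed by 6.65 ± 0.60 (medians 26.2 against 0.159 CPM) and Htr3a by 4.96 ± 0.46 (medians 12.8 against 0.307 CPM). Oprk1, the dynorphin receptor, had 9.11, 25.6 and 34.6 CPM in the striatum and 0, 0.135 and 0.529 CPM in the cerebellum (6.90 ± 0.56, adjusted p = 9.06e-08, and 7.65 without cerebellum 1).

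Neuropeptide genes were higher in striatum for 14 of 17 tested members of 20, 13 by at least 4-fold, with a median of 3.67. Of all genes, 21% were higher in striatum, and 6.41% by at least 4-fold. Beside Tac1, Pdyn, Penk, Npy and Sst, which are given above, Nts, the neurotensin precursor, had 9.41, 15.4 and 21.4 CPM in the striatum and no read in the cerebellum, so it was at least 261-fold higher in striatum.

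Genes of GABA and glycine synthesis and transport were tested for 13 of 15 members. Of these, 6 were higher in striatum and 3 higher in cerebellum, beside 21% and 21.5% of all genes. Gad1, the main GABA-synthesising enzyme, had 278, 424 and 622 CPM in the striatum and 166, 498 and 579 CPM in the cerebellum and was not called (-0.16 ± 0.24, adjusted p = 0.629). Gad2, the second isoform, had 97.2, 246 and 305 CPM in the striatum and 20.2, 79.98 and 121 CPM in the cerebellum (1.40 ± 0.33, adjusted p = 0.00301). Slc32a1, the vesicular GABA transporter, was higher in striatum by 0.76 ± 0.13 without overlap. Slc6a5, the glycine transporter of Golgi cells, differed by -3.84 ± 0.52 (medians 1.99 against 36.1 CPM). Among glutamate transporters of vesicles, Slc17a7, which granule cells and cortical neurons use, had 12.1, 69.3 and 635 CPM in the striatum and 729, 757 and 1013 CPM in the cerebellum (-2.16 ± 0.74, adjusted p = 0.0266, and -2.82 without striatum 17, its highest striatal library). Slc17a6, which thalamic and brainstem neurons use, had 0.743, 4.95 and 172 CPM in the striatum and 0.528, 0.846 and 2.45 CPM in the cerebellum (5.05 ± 1.18, adjusted p = 0.00252). It was among the genes with the widest spread within the striatum, and limma-voom did not call it (1.73, adjusted p = 0.0971). The edgeR fit of exposed rats did not call it either (1.52, adjusted p = 0.249).

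Genes of vesicle release were tested for all 35 members, with 7 higher in striatum and 10 higher in cerebellum, shares near the 21% and 21.5% of all genes. Syt1, the common calcium sensor of release, was not called (medians 292 against 227 CPM, 0.29 ± 0.34, adjusted p = 0.53). Syt5 had 121, 213 and 276 CPM in the striatum and 8.28, 11.4 and 24.6 CPM in the cerebellum (4.01 ± 0.26, adjusted p = 9.73e-09). Syt10 had 4.06, 12.5 and 23.1 CPM in the striatum and no cerebellar read, at least 228-fold higher. Vamp1, a vesicle SNARE of fast synapses, was lower in striatum by -1.69 ± 0.15 and Snap25, its membrane partner, by -1.19 ± 0.15, both without overlap.

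Ion channel genes were called in both directions within each family, beside 21% of all genes higher in striatum and 21.5% higher in cerebellum. Sodium channel genes were tested for 14 of 15 members, with 6 higher in striatum and 4 higher in cerebellum. Scn4b, the beta4 subunit behind resurgent current, had 43.9, 1464 and 2002 CPM in the striatum and 62.6, 85.5 and 135 CPM in the cerebellum (3.84 ± 0.52, adjusted p = 1.99e-05, and 4.03 without striatum 17, the only striatal library that was not above the cerebellar ones). Scn3b, the beta3 subunit, was higher in striatum by 4.23 ± 0.33, without overlap. Of 21 calcium channel genes 8 were higher in striatum and 5 higher in cerebellum. Cacna1h, a T-type channel, had 85.9, 197 and 225 CPM in the striatum and 1.69, 3.07 and 3.91 CPM in the cerebellum (5.87 ± 0.30, adjusted p = 1.02e-09). Cacna1a, the P/Q-type channel named for Purkinje cells, had 99.3, 209 and 237 CPM in the striatum and 107, 1032 and 1141 CPM in the cerebellum (-2.15 ± 0.39, adjusted p = 3.41e-04). Cacna1e, the R-type channel, was among the genes with the widest spread within the cerebellum and was not called (cerebellar levels 1.62, 179 and 232 CPM, -0.24 ± 0.70, adjusted p = 0.811).

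Potassium and HCN channel genes were tested for 62 of 64 members, 24 higher in striatum and 22 higher in cerebellum, beside the same shares of all genes. Kcnip2, the KChIP2 subunit of A-type channels, had 329, 806 and 1025 CPM in the striatum and 39.4, 48.5 and 67.5 CPM in the cerebellum (3.98 ± 0.23, adjusted p = 2.81e-09). Kcnj4, an inward rectifier, differed by 7.16 ± 0.76, Kcnf1, a silent modulatory subunit, by 6.87 ± 0.47, and Kcnq5, an M-type channel, by 5.46 ± 0.41. Without cerebellum 48, Kcnj4 differed by 8.74 and Kcnf1 by 7.63. Towards the cerebellum, Kcnc1, a Kv3 channel of fast-firing neurons, had medians of 69.6 against 1032 CPM, with a difference of -3.54 ± 0.35. Kcnk10, a two-pore channel, differed by -4.53 ± 0.49. The groups of all these potassium channel genes were free of overlap.

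Channels and pumps of calcium stores were tested for 24 of 26 members, with 3 higher in striatum, 10 higher in cerebellum and 11 not called. Over all genes, 21% were higher in striatum and 21.5% higher in cerebellum. Atp2a3, the SERCA3 pump, had 4.57, 8.46 and 26.1 CPM in the striatum and 480.5, 599.6 and 694 CPM in the cerebellum (-5.86 ± 0.33, adjusted p = 2.24e-09). Itpr1, the inositol trisphosphate receptor, had 320.4, 1212 and 2185 CPM in the striatum and 1058, 3089 and 4462 CPM in the cerebellum, with overlap (-1.37 ± 0.36, adjusted p = 0.0053). Atp2b1, a pump of the plasma membrane, was higher in striatum by 1.76 ± 0.45. Among calcium-binding proteins, Hpca, hippocalcin, had 1086, 2368 and 2826 CPM in the striatum and 125, 130.3 and 421 CPM in the cerebellum (3.60 ± 0.32, adjusted p = 2.31e-07), whereas its relative Hpcal1 had 25.8, 37.03 and 96.9 CPM and 839, 986 and 1473 CPM (-4.52 ± 0.28, adjusted p = 6.10e-09). Calb1, calbindin, which projection neurons and Purkinje cells share, was lower in striatum by -2.11 ± 0.24 (medians 209 against 741 CPM), and Calb2, calretinin of granule cells, by -4.38 ± 0.80, or -5.19 without striatum 17.

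Cyclic nucleotide signalling, through which dopamine acts on projection neurons, leaned towards the striatum. Adenylyl cyclases and phosphodiesterases were tested for 25 of 27 members. Of these, 13 were higher in striatum and 5 higher in cerebellum, beside 21% and 21.5% of all genes. Adcy5, the striatal adenylyl cyclase, had 183, 1578 and 2151 CPM in the striatum and 46.3, 108 and 115 CPM in the cerebellum (3.95 ± 0.42, adjusted p = 1.57e-06). Pde1b, a calmodulin-dependent phosphodiesterase, had 83.9, 987 and 1157 CPM in the striatum and 22.5, 30.1 and 39.6 CPM in the cerebellum (4.87 ± 0.44, adjusted p = 2.45e-07). Pde2a differed by 3.48 ± 0.23 without overlap and Pde10a, the phosphodiesterase of projection neurons, by 3.64 ± 0.68 with overlap through striatum 17. Pde5a, a cyclic GMP phosphodiesterase of Purkinje cells, was lower in striatum by -4.27 ± 0.38.

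Kinases and G protein regulators differed by isoform. Camk2a, the alpha isoform of the calmodulin kinase of synapses, had 464, 912 and 1349.7 CPM in the striatum and 32.4, 47.4 and 64.3 CPM in the cerebellum (4.18 ± 0.26, adjusted p = 5.68e-09), and Camk2d, the delta isoform, 23.2, 30.3 and 83.02 CPM and 60.2, 307 and 370.1 CPM (-2.91 ± 0.37, adjusted p = 9.49e-06). Prkar2b, a regulatory subunit of protein kinase A, was higher in striatum by 3.14 ± 0.25. G protein and RGS genes were tested for 35 of 37 members. Of these, 17 were higher in striatum and 6 higher in cerebellum, beside 21% and 21.5% of all genes. Rgs9, which shortens dopamine receptor signals, had 25.1, 696 and 949 CPM in the striatum and 4.18, 8.74 and 11.3 CPM in the cerebellum (6.24 ± 0.59, adjusted p = 4.69e-07). Gnal, the alpha subunit that couples D1 dopamine and adenosine receptors to adenylyl cyclase, differed by 2.92 ± 0.28, and Rgs8, an RGS protein of Purkinje cells, was lower in striatum by -1.52 ± 0.25 although projection neurons express it too.

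Genes of synapse formation and adhesion were called in both directions, beside 21% of all genes higher in striatum and 21.5% higher in cerebellum. Cerebellins, neurexins and other synapse organisers were tested for 36 of 39 members, 16 higher in striatum and 6 higher in cerebellum, and cadherins for 12 of 16, 6 higher in striatum and 4 higher in cerebellum. Postsynaptic scaffolds were tested for 19 of 20 members, 7 higher in striatum and 4 higher in cerebellum. Dlgap2, a scaffold that binds PSD-95, had 19.3, 59.5 and 85.03 CPM in the striatum and 0.147, 0.613 and 1.14 CPM in the cerebellum (6.37 ± 0.44, adjusted p = 1.77e-08), and Homer1 was higher in striatum by 2.07 ± 0.34, opposite to Homer3. Ephrins, semaphorins and their receptors were tested for 43 of 53 members, 23 higher in striatum and 7 higher in cerebellum. Epha4, an ephrin receptor of axon guidance, had 99.7, 228 and 304 CPM in the striatum and 15.4, 19.2 and 22.7 CPM in the cerebellum (3.52 ± 0.24, adjusted p = 1.49e-08). Ntrk2, the receptor of brain-derived neurotrophic factor, was higher in striatum by 1.52 ± 0.33 without overlap.

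Retinoid and thyroid hormone genes, which bear on endocrine action in the brain, differed as follows. Of 36 retinoic acid and steroid genes 28 were tested, 8 were higher in striatum and 9 higher in cerebellum, beside 21% and 21.5% of all genes. Rarb, a retinoic acid receptor of projection neurons, had 6.44, 116 and 124 CPM in the striatum and 2.11, 4.34 and 17.3 CPM in the cerebellum (3.97 ± 0.56, adjusted p = 2.98e-05), with overlap through striatum 17. Its partner Rxrg had 16.2, 187 and 236 CPM and 0.793, 4.92 and 9.45 CPM (4.98 ± 0.54, adjusted p = 2.07e-06). Cyp26b1, which breaks retinoic acid down, had 3.18, 4.54 and 30.02 CPM in the striatum and 56.6, 71.4 and 90.6 CPM in the cerebellum (-3.06 ± 0.46, adjusted p = 5.17e-05, and -3.73 without striatum 17). Thyroid hormone genes were tested for 14 of 15 members. Of these, 8 were higher in striatum and 1 higher in cerebellum, beside 21% and 21.5% of all genes. The 8 include Ttr (7.42), which differed by 4.01 without striatum 17 and was not called in exposed rats (-0.77). Thrb, the thyroid hormone receptor beta, had 38.1, 87.1 and 100.2 CPM in the striatum and 5.13, 8.53 and 10.6 CPM in the cerebellum (3.16 ± 0.25, adjusted p = 7.03e-08), and Crym, a protein that binds the hormone in the cell, differed by 3.63 ± 0.38. The member higher in cerebellum was Hr, a hormone-responsive corepressor (medians 53.1 against 228 CPM, -1.84 ± 0.26, adjusted p = 3.18e-05).

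Immediate early genes, which neurons switch on with activity, were tested for 22 of 23 members. Of these, 10 were higher in striatum and 3 higher in cerebellum, beside 21% and 21.5% of all genes. Egr3, a zinc finger factor, had 18.2, 53.5 and 78.5 CPM in the striatum and 0, 0.159 and 0.675 CPM in the cerebellum (7.68 ± 0.59, adjusted p = 5.06e-08), and Arc, a synaptic regulator, differed by 3.03 ± 0.43 (medians 207 against 23.97 CPM). Clock genes were tested for 16 of 18 members with 4 called in each direction, near the shares of all genes. Without cerebellum 48, 4 were higher in striatum and 7 higher in cerebellum, where 29% and 30% of all genes were. Npas2, a forebrain relative of Clock, was higher in striatum by 3.33 ± 0.30 (medians 129 against 11.3 CPM). Rbfox3, the splicing factor detected by NeuN antibodies, was lower in striatum (medians 97.9 against 423 CPM, -2.01 ± 0.22, adjusted p = 2.34e-06).

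Genes of xenobiotic handling and of housekeeping complexes were called in numbers that depended on the test and on cerebellum 48. Of 23 xenobiotic genes tested among 29, 3 were higher in striatum and 3 higher in cerebellum. With a block for the animal these counts were 5 and 3, in a fit that called 46.9% of all genes, and without cerebellum 48 they were 9 and 4, in a fit that called 59%. Cyp46a1, the neuronal cholesterol hydroxylase, had 189.5, 442 and 527 CPM in the striatum and 48.7, 62.1 and 88.8 CPM in the cerebellum (2.64 ± 0.20, adjusted p = 4.58e-08). No cytosolic ribosomal protein gene was called by edgeR among 76 tested (1 had an unadjusted p under 0.05, DESeq2 called 27 higher in striatum and 1 higher in cerebellum, and limma-voom 54 and 0). The median of these genes was -0.24 in edgeR, 0.37 in DESeq2, 0.42 in limma-voom and, in edgeR without cerebellum 48, 0.44 with 27 genes called higher in striatum. No nuclear-encoded gene of the respiratory chain was called by edgeR among 72 tested (4 had an unadjusted p under 0.05, DESeq2 called 4 higher in striatum and 2 higher in cerebellum, and limma-voom 27 and 4). With a block for the animal 7 were called higher in cerebellum, and without cerebellum 48, 9 were higher in striatum and 2 higher in cerebellum. Without striatum 49, the counts were 0 and 1 for ribosomal protein genes, with a median of -0.44, and 0 and 2 for the respiratory chain, in a fit that called 41.4% of all genes. Over all genes, 24.5% were higher in striatum and 23.8% higher in cerebellum by DESeq2 (48.3% together), 35.6% and 35.9% by limma-voom (71.4% together), 23.4% and 23.5% with the block, 29% and 30% in edgeR without cerebellum 48 and 19.9% and 21.4% without striatum 49. In the fit of all 15 libraries, 4 of 67 mitochondrial ribosomal protein genes were called, all higher in cerebellum, and 5 of 36 proteasome subunit genes, 1 higher in striatum and 4 higher in cerebellum.

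The same contrast was fitted in rats with loaded implants, which share no library with the sham rats. In 22 striatal and 24 cerebellar libraries of the low, medium and high loadings together, 7868 of 11928 genes (66%) were called. Of 5021 genes called in sham rats and tested in these, 4824 were called in the same direction, which is 96.1% of the sham calls and 61.3% of the exposed calls, and 1, Kl, was called in the opposite direction (-1.06 in exposed rats against 3.63 in sham rats). Kl is named because it was the single such gene. Genes at least 4-fold different in sham rats were called in the same direction for 1112 of 1125. The markers differed by 3.52 for Ppp1r1b, 6.86 for Drd1, 6.11 for Adora2a, -11.65 for Gabra6, -6.71 for Cbln1 and -6.47 for Pcp2. In the exposed rats the choroid plexus genes Ttr (-0.77, adjusted p = 0.502) and Folr1 (0.72, adjusted p = 0.308) were not called, whereas Enpp2 was higher in striatum (0.97, adjusted p = 2.72e-06) and Clic6 lower (-2.10, adjusted p = 1.96e-09). At a single loading 3862 (low), 3948 (medium) and 3700 (high) of the sham calls were called in the same direction. Whether the contrast differs between sham and exposed rats was not tested.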

How the data were processed

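Whole-number counts of reads per gene, deposited by the authors as 1 table a region, were used for 8 striatal and 7 cerebellar libraries of sham rats. Reads were checked with FastQC and aligned with HISAT2 to rn6, per the submitters' processing notes, without versions. How reads were counted, with which annotation and strand setting, is not stated by the labels or headers, so antisense partners and near-identical copies are uncertain. The lowest total of a gene was 10 reads in each table. Poly(A) capture and rRNA removal are both mentioned in the labels' protocols, and 4 cohorts, without saying which applied to which library.

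Tables were joined on the gene identifier. edgeR 4.0.16 (R 4.3.3) gave trimmed mean of M values factors, a filter on low counts by region (filterByExpr) and the robust quasi-likelihood test. Standard errors are the absolute log2 fold change divided by the square root of F, and log2 CPM used a prior count of 2. A gene kept by the filter may have passed through 1 region alone, so counts over members tested are descriptions. DESeq2 1.42.0, limma-voom (limma 3.58.1), other scalings and filters, the animal as a block and leaving out libraries were the alternatives. Both regions came from 7 rats, and the numbers in the titles name the animal, so these pair by design. Deviations from the region means correlated between the libraries of a rat by -0.10 to 0.61, above 0.1 for 5 of 7 rats. The script for the test was tested on simulated data.

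Markers, lists and other members were chosen with earlier results of these data known. Genes were named by rule: the 6 markers, the 12 largest differences a direction (mean of at least 20 CPM, no overlap), up to 3 members of a list and direction with the smallest p, members of receptor and channel families, the 6 highest genes listed for 1 region alone, and the 4 widest in a region. Genes with no call in a list were named to account for its members. Some members named by the rule are covered by the counts alone, and some are not reported here. Intervals on reads cover counting error only. Promoters came from RefSeq (GRCr8), 1 start a gene, while the counts rest on rn6, so no coordinates were shared.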

Additional observations from a re-analysis of the deposited data

Results flagged for a closer look

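Within each region, the lowest and highest library were set against the others for 5 gene lists and for named genes reaching 1 CPM there. The gap to the nearest other library was taken in log2 CPM, with a prior count of 2, and divided by the range of the group. A library is given here where this ratio exceeded Dixon's 95% critical value for the number of libraries in the group. Levels below are printed in CPM, on which scale a gap close to 0 CPM looks smaller than in log2 CPM. Chance alone gives such a gap in about 1 in 20 groups, and most of the cases below come from striatum 17 and cerebellum 48. What sets these libraries apart was not tested.

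Striatum 17 lay far below the other striatal libraries for Ppp1r1b at 200.3, Drd1 at 8.52, Adora2a at 8.12, Tac1 at 25.1, Lrrc10b at 76.1, Tnni3 at 3.07, Gpr6 at 2.87, Pdyn at 16.6, Meis2 at 48.9 and Syndig1l at 14.5 CPM. Low levels in striatum 17 were also measured for Ptpn5 at 245, Gng7 at 84.01, Chrm4 at 7.93, Drd2 at 8.72, Pcp4 at 177, Gabra4 at 48.9, Gabrd at 19.1, Htr6 at 3.47, Htr3a at 4.95 and Penk at 68.3 CPM. The same library was low for Npy at 42.1, Scn4b at 43.9, Kcnj4 at 31.5, Kcnip2 at 329, Pde1b at 83.9, Pde2a at 339, Adcy5 at 183, Prkar2b at 59.6, Rgs9 at 25.1 and Rgs8 at 71.9 CPM. It was likewise the lowest for Gnal at 124, Rarb at 6.44, Rxrg at 16.2, Npas2 at 37.8, Hpca at 1086 and Cyp46a1 at 189.5 CPM. Striatum 17 lay far above the other striatal libraries for Slit1 at 128, Neurod1 at 18.03, Homer3 at 53.6, Enpp2 at 1764, Col1a1 at 52.7, Col1a2 at 156, Kl at 237 and Clic6 at 243 CPM. Among list means in log2 CPM, striatum 17 stood out with 6.00 for projection neuron genes (median of the region 8.95), 8.11 for choroid plexus genes (median of the region 2.22) and 6.07 for fibroblast genes (median of the region 3.95).

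Cerebellum 48 lay far below the other cerebellar libraries for Cbln3 at 95.8, En2 at 79.1, Neurod1 at 217, Barhl2 at 37.3, Ebf1 at 3.64, Cnr1 at 80.05, Tfap2b at 16.1, Gdf10 at 61.3, Cspg4 at 3.24 and Pax6 at 39.1 CPM. Low levels in cerebellum 48 were also measured for Clic6 at 6.07, Cacna1e at 1.62, Gabrb2 at 4.45, Gabrg3 at 0.27, Gria1 at 91.1, Gria3 at 32.3, Gria4 at 159, Grin1 at 149.6, Grid1 at 20.4 and Grm4 at 97.3 CPM. This cerebellar library was low for Gad1 at 166, Gad2 at 20.2, Slc6a5 at 3.78, Syt1 at 31.7, Snap25 at 1217, Cacna1a at 107, Kcnc1 at 161, Kcnk10 at 4.45, Atp2b1 at 29.2 and Itpr1 at 1058 CPM. Further low values of cerebellum 48 were those of Pde10a at 2.70, Pde5a at 32.7, Adcy5 at 46.3, Camk2d at 60.2, Homer1 at 6.61, Thrb at 5.13, Hr at 60.7, Rbfox3 at 122 and Ntrk2 at 50.6 CPM. Cerebellum 48 lay far above the other cerebellar libraries for Pcp2 at 1690.2, Lrrc10b at 2.16, Meis2 at 4.86, Myo5b at 1.62, Tff3 at 95.7, Pcp4 at 1247, Vtn at 546, Ptgds at 52391, Chrm1 at 4.18, Kcnf1 at 2.16 and Rarb at 17.3 CPM. Among list means in log2 CPM, cerebellum 48 stood out with 4.66 for projection neuron genes (median of the region 4.32), 6.83 for granule cell genes (median of the region 7.87), 3.15 for choroid plexus genes (median of the region 1.97), 8.92 for fibroblast genes (median of the region 5.04) and 10.23 for ribosomal protein genes (median of the region 7.64).

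Other libraries stood out for single genes. Cerebellum 34 was low for Drd1, with 0 CPM against a cerebellar median of 1.53. Cerebellum 1 was high for Impg1, with 72.9 CPM against a cerebellar median of 62.2. Striatum 18 was high for Chat, with 36.7 CPM against a striatal median of 15.3. Striatum 49 was low for Gdf10, with 3.18 CPM against a striatal median of 7.58. Cerebellum 1 was high for Olig1, with 148 CPM against a cerebellar median of 75.3. Striatum 49 was high for Sst, with 214 CPM against a striatal median of 117. Cerebellum 1 was high for Slc17a7, with 1013 CPM against a cerebellar median of 757. Striatum 18 was high for Snap25, with 1191 CPM against a striatal median of 926. Cerebellum 1 was low for Kcnq5, with 0.529 CPM against a cerebellar median of 2.52. Striatum 48 was high for Atp2a3, with 26.1 CPM against a striatal median of 8.46.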

How the results depend on the processing

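The numbers of genes called depended on the test and on cerebellum 48 more than on scaling. Against 2508 genes higher in striatum and 2563 higher in cerebellum, limma-voom with quality weights called 4238 and 4275, DESeq2 2923 and 2839, upper quartile factors 2711 and 2246, and no filter 2819 and 2886. With the replicate block for the animal, on the 7 rats with both regions, 2784 and 2795 genes were called, against 2372 and 2547 in the same libraries without the block. The block changed no other call of a named gene than those given in the text. Leaving out 1 library at a time gave 2315 to 3472 and 2253 to 3596 genes, the highest without cerebellum 48. At least 4-fold differences numbered 710 to 846 and 388 to 460 in these fits, and 758 and 397 with the block. Without both libraries of animal 48, a setting added after the data were seen, 3387 and 3566 genes were called. The fit of the same libraries without the block and the exchange of labels within rats were also added then. Of 4834 values of 173 named genes under 28 settings, 4775 kept direction and call, 15 gained the call, 18 lost it and 26 changed sign. A value that changed sign is counted there alone, also where its call was gained or lost. The fit of the 7 rats without the block and the fit without striatum 49 use the same libraries, so that setting is counted more than once.

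Signs changed in 5 genes, and the cause was not tested. Grin1 was -0.0374 with total counts, -0.10 by limma-voom, -0.0367 without a filter, -0.0284 in all 61 libraries, -0.0859 without the libraries standing apart, -0.16 without animal 48 and -0.20 to 0.0722 with 1 library left out. Kl was -0.64 by DESeq2, -0.81 by limma-voom, -0.70 without animal 17, -0.44 without the libraries standing apart and -0.66 to 3.82 with 1 library left out. Clic6 was -1.46 by DESeq2, -2.18 by limma-voom, -1.13 with the block, -1.62 without animal 17, -1.64 without the libraries standing apart and -1.66 to 1.66 with 1 library left out. Hbb was 1.49 without the libraries standing apart and -4.26 to 1.09 with 1 library left out. Cacna1e was 0.30 with the block.

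Depth limits genes with few reads, whose folds are bounds or ratios with wide intervals. The median SD of a gene was 0.34 log2 units over the striatal libraries and 0.50 over the cerebellar ones. Differences between regions include any difference between punches, tables and runs.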
